A study of Mus musculus with 4 samples.

Results

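Dermal cells of the ventral foot skin of embryonic mice were compared between the fraction sorted as Axin2-positive and the fraction sorted as Axin2-negative at embryonic day E17.5. The comparison was made across genes: FPKM (fragments per kilobase of transcript, relative to all mapped fragments of the library) was summed per gene symbol over entries with an OK status, and a named gene was kept when it reached 5 FPKM in at least 1 foot library and lay above 0 in both. This left 7952 of 33640 gene units. Of the 8246 units that reached 5 FPKM, 170 were listed at 0 in the positive-labelled library alone and 124 in the negative-labelled library alone, and these were not compared. FPKM values below are as deposited, and log2 ratios are log2((FPKM + 1)/(FPKM + 1)), labelled positive over labelled negative, once each library was divided by its median-ratio factor (0.922 and 1.085). This scaling removed a shift of -0.24 on the log2 scale.

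Both groups came from mice that carry Axin2-LacZ, a reporter of the Wnt feedback gene Axin2, and the labels give them as dermal cells that were reporter positive or reporter negative, sorted by FACS after collagenase and hyaluronidase digestion of dissected skin. Each group holds 1 library, so no difference below has a replicate check and no test was made. The same study gives 1 library of each reporter fraction from dorsal back skin at E14.5, and these back values are set beside the foot values only to show where a foot library stands apart. Site and stage change together between foot and back and cannot be told apart. Pooling of embryos, their litter and sex, the second Axin2 allele and the strand setting were not given in the sources used here. Per its design text the series asks whether Wnt signalling shapes gene activity by body site in mesenchyme whose overlying epithelium takes different fates.

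Wnt ligands are secreted proteins that bind Frizzled receptors and Lrp co-receptors. In the canonical branch this stops the destruction of beta-catenin, which then acts in the nucleus with Lef/Tcf factors on target genes, among them feedback inhibitors such as Axin2. In developing skin, epithelium and dermis exchange Wnt, BMP, FGF, Hedgehog and Eda signals while hair follicles, glands and the dermal layers form. Volar foot skin makes sweat glands, and the dermis beneath it is built by fibroblasts that secrete collagens, elastic fibre proteins and proteoglycans.

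Axin2 (chr11:108781663-108812097, mm9) stood at 9.65 FPKM (bounds 7.10 to 12.5) in the positive-labelled library and at 12.9 (10.2 to 15.3) in the negative-labelled library. The log2 ratio was -0.17 (-0.80 to 0.48), where the range in brackets is what the authors' bounds allow. The transcript was therefore not higher in the fraction labelled for it, and its bounds overlapped. In the back, Axin2 was 4.49 FPKM in the positive-labelled library and 3.13 in the negative-labelled library. All directions below follow the labels of the foot libraries, which the Axin2 transcript did not bear out. Whether the LacZ allele changes the Axin2 transcript measured was not tested, which limits this check of the labels.

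The labelled cell type was checked against markers. All 16 pan-dermal fibroblast genes passed the filter, and their summed FPKM was 8393 in the positive-labelled library and 8298 in the negative-labelled library. The collagen genes Col1a2 and Col3a1 reached the highest values, with Col3a1 at 2100 and 2135 FPKM. The near-equal sums held differences in both directions. Col1a2 was more than 2-fold higher in the positive-labelled library (log2 ratio 1.94), and Col1a1 and Col5a1 were more than 2-fold lower (-1.20 and -1.04). Their median log2 ratio was 0.09 (-0.15 as deposited). The limb-end Hox genes Hoxa13 and Hoxd13, which pattern the hand and foot plate, stood at 21.8 and 41.3 FPKM in the positive-labelled library and 21.4 and 33.0 in the negative-labelled library, and were listed at 0 in both back libraries. Keratinocyte, endothelial, melanocyte, adipocyte, cartilage, and macrophage and leukocyte markers had no member that passed the filter, with Krt10, a keratin of differentiating epidermis, at 7.38 FPKM and listed at 0 in the negative-labelled library. The summed FPKM over markers with an entry of their own, labelled positive first, was 8.51 and 4.45 for 18 keratinocyte genes and 1.04 and 0.741 for 14 endothelial genes. For melanocytes, adipocytes, cartilage and bone the sums were 2.37 and 2.49, 8.29 and 9.72, 7.15 and 7.97, and 15.4 and 24.3 FPKM. For macrophages and leukocytes it was 0.788 and 5.67 over 17 genes.

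Mast cell markers separated the foot libraries most among these lists. Their sum over 12 genes was 3.15 FPKM in the positive-labelled library and 271 in the negative-labelled library, with 8 and 4 genes at 0, and Cpa3 was listed at 0 in the first and at 32.7 FPKM in the second. Skeletal muscle markers summed to 9.33 and 41.3 FPKM over 17 genes (9 and 7 at 0). Schwann cell markers summed to 20.6 and 35.2 over 12 genes (8 and 6 at 0), and S100b, a glial calcium-binding protein gene, stood at 0.160 and 10.7 FPKM. The neurofilament gene Nefl stood at 0.194 and 6.11. Transcripts of mast cells, muscle and glia were thus more abundant in the negative-labelled library, and their part in the differences below was not tested. In such bulk samples fewer cells of a type and less RNA per cell cannot be told apart.

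Of the 7952 genes compared, 791 (9.95%) were at least 2-fold higher and 766 (9.63%) at least 2-fold lower in the positive-labelled library, and "called" below means past this limit. Of all genes, 626 (7.87%) were higher and 615 (7.73%) lower with bounds that did not overlap after scaling. The calls were 50.8% higher ones after scaling and 34.5% as deposited, where 579 genes were higher and 1099 lower. The median log2 ratio was -0.02, the middle 50% of genes lay between -0.44 and 0.41, and the middle 90% between -1.38 and 1.45. These shares are the background for the counts of every list below. Precision differed, since the median half-width of the authors' bounds was 25.4% of the FPKM in the positive-labelled library and 15.0% in the negative-labelled library. Some values, 10.6% and 15.4% of the genes compared, lay outside their own bounds, and this is said wherever bounds are printed. Ratios of low genes depend on the added constant: of 130 called genes described here by the naming rule, 79 were still called when 5 was added in place of 1.

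**Figure D1:**
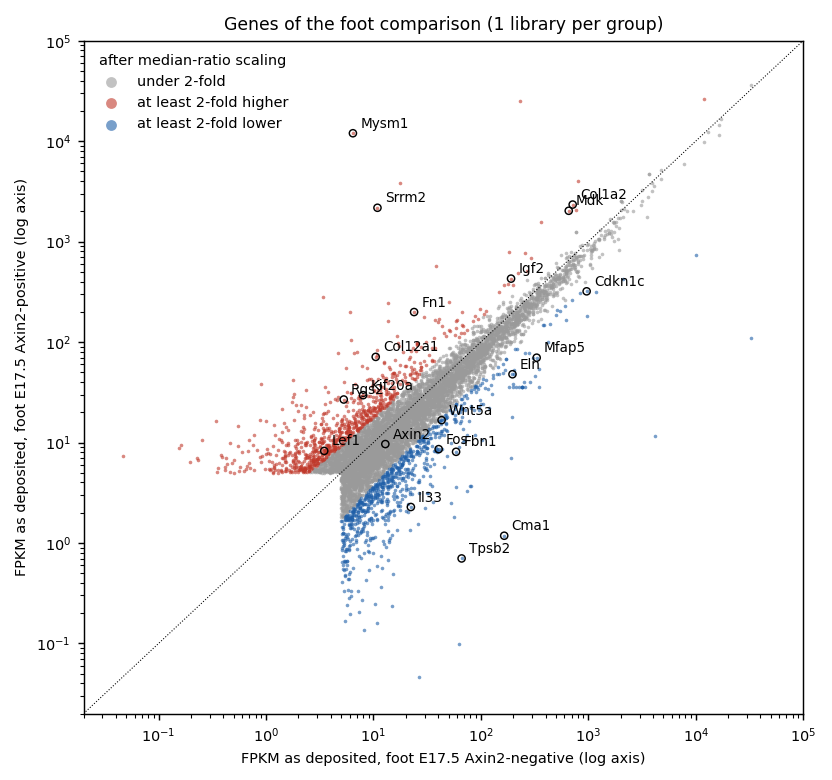
FPKM as deposited of the 7952 genes compared, library labelled negative on the x axis and library labelled positive on the y axis, both log axes; red and blue points are at least 2-fold higher and lower after scaling, and open circles carry names. Mysm1 and Srrm2 lie far above the diagonal at 11994 and 2173 FPKM, Cma1 and Tpsb2 far below it, and Axin2 close to it.

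Wnt pathway genes were divided by role. Of 3 Wnt ligand and secretion genes compared, only Wnt5a was called, and it was lower in the positive-labelled library (log2 ratio -1.09). Wls, the carrier that Wnt proteins need for secretion, stood at 29.4 FPKM (bounds 26.3 to 32.5) and 25.6 (22.7 to 28.0), and Wnt11 at 4.88 FPKM (bounds 2.94 to 6.90) and 6.44 (5.07 to 7.82). None of the other 16 members of the list passed the filter. Among 9 receptor and co-receptor genes, the Frizzled gene Fzd3 was called lower, at 1.71 FPKM (bounds 0.933 to 3.14) in the positive-labelled library and 5.61 (4.32 to 7.0) in the negative-labelled library, a log2 ratio of -1.11 (-1.89 to -0.18). Lgr4, a receptor for the R-spondins that enhance Wnt signalling, was just under the limit at 11.0 FPKM (bounds 8.81 to 13.3) and 26.9 (24.9 to 29.2), while the co-receptor gene Lrp6 had 10.1 FPKM (bounds 8.54 to 11.7) and 6.08 (5.42 to 6.87). The median of the 9 was 0.13 (-0.07 as deposited).

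No secreted Wnt inhibitor was called among 7 compared, and their median log2 ratio was 0.40. Their values, labelled positive and then negative, ran from 25.9 and 34.4 FPKM for Sfrp2, the lowest ratio, to 8.63 and 5.05 for Dkk2, the highest. Wif1, which binds Wnt proteins outside the cell, was the most abundant at 48.7 and 52.0. Of the 7, 6 had a ratio above 0 (5 as deposited) and 1, Sfrp2, a ratio below 0, each by less than 2-fold.

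Inside the cell, 2 of 13 core components were called higher and 2 lower, with a median of -0.11. Tle1, a Groucho-type corepressor of Lef/Tcf factors, stood at 20.5 FPKM (bounds 15.5 to 25.7) in the positive-labelled library and 8.91 (6.93 to 11.1) in the negative-labelled library, a log2 ratio of 1.33 (0.67 to 1.97). Its bounds did not overlap, and the back libraries lay at 9.59 and 5.72 FPKM. Lef1 was the other gene called higher (1.24), and because its back values were 8.66 and 8.31 FPKM, the negative-labelled foot library at 3.48 FPKM was the 1 of 4 that stood apart. Btrc, the F-box protein that marks phosphorylated beta-catenin for destruction, was called lower at 2.74 FPKM (bounds 2.09 to 3.38) against 13.4 (9.39 to 14.8), a log2 ratio of -1.75 (-2.16 to -1.05). Dvl3, a Dishevelled adaptor that passes on the receptor signal, was called lower at 2.11 FPKM (bounds 1.08 to 3.14) against 8.01 (5.02 to 11.0). The transcript of beta-catenin itself, Ctnnb1, was 115 FPKM (bounds 107 to 127) and 118 (113 to 125). Gsk3b, the kinase that phosphorylates beta-catenin, had a ratio of 0.90 (0.51 to 1.26), under the limit.

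Of 13 Wnt target and feedback genes, 2 were called higher and none lower, and 7 of 13 had a ratio above 0, with a median of 0.25 (0.02 as deposited). Besides Lef1, the gene called was Dact1, an intracellular regulator that binds Dishevelled. Its level was 7.5 FPKM (bounds 6.07 to 8.92) in the positive-labelled library and 2.96 (2.38 to 3.56) in the negative-labelled library, a log2 ratio of 1.29 (0.83 to 1.74). The back libraries had 1.97 and 0.292 FPKM. The positive-labelled foot library was thus the highest of the 4. The feedback genes Nkd1 and Nkd2, which encode Dishevelled-binding inhibitors, went opposite ways by less than 2-fold, at 0.41 and -0.22. Apcdd1, a membrane inhibitor of the pathway, had 26.6 FPKM (bounds 23.6 to 29.6) and 37.0 (34.5 to 39.6), and the cell cycle gene Ccnd1 had 24.4 FPKM (bounds 21.1 to 27.7) and 30.1 (27.9 to 32.9). Bounds overlapped for Nkd2, Apcdd1 and Ccnd1. Cd44, a hyaluronan receptor, was 45.4 and 29.0 FPKM with a ratio of 0.86 (0.63 to 1.10).

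**Figure D2:**
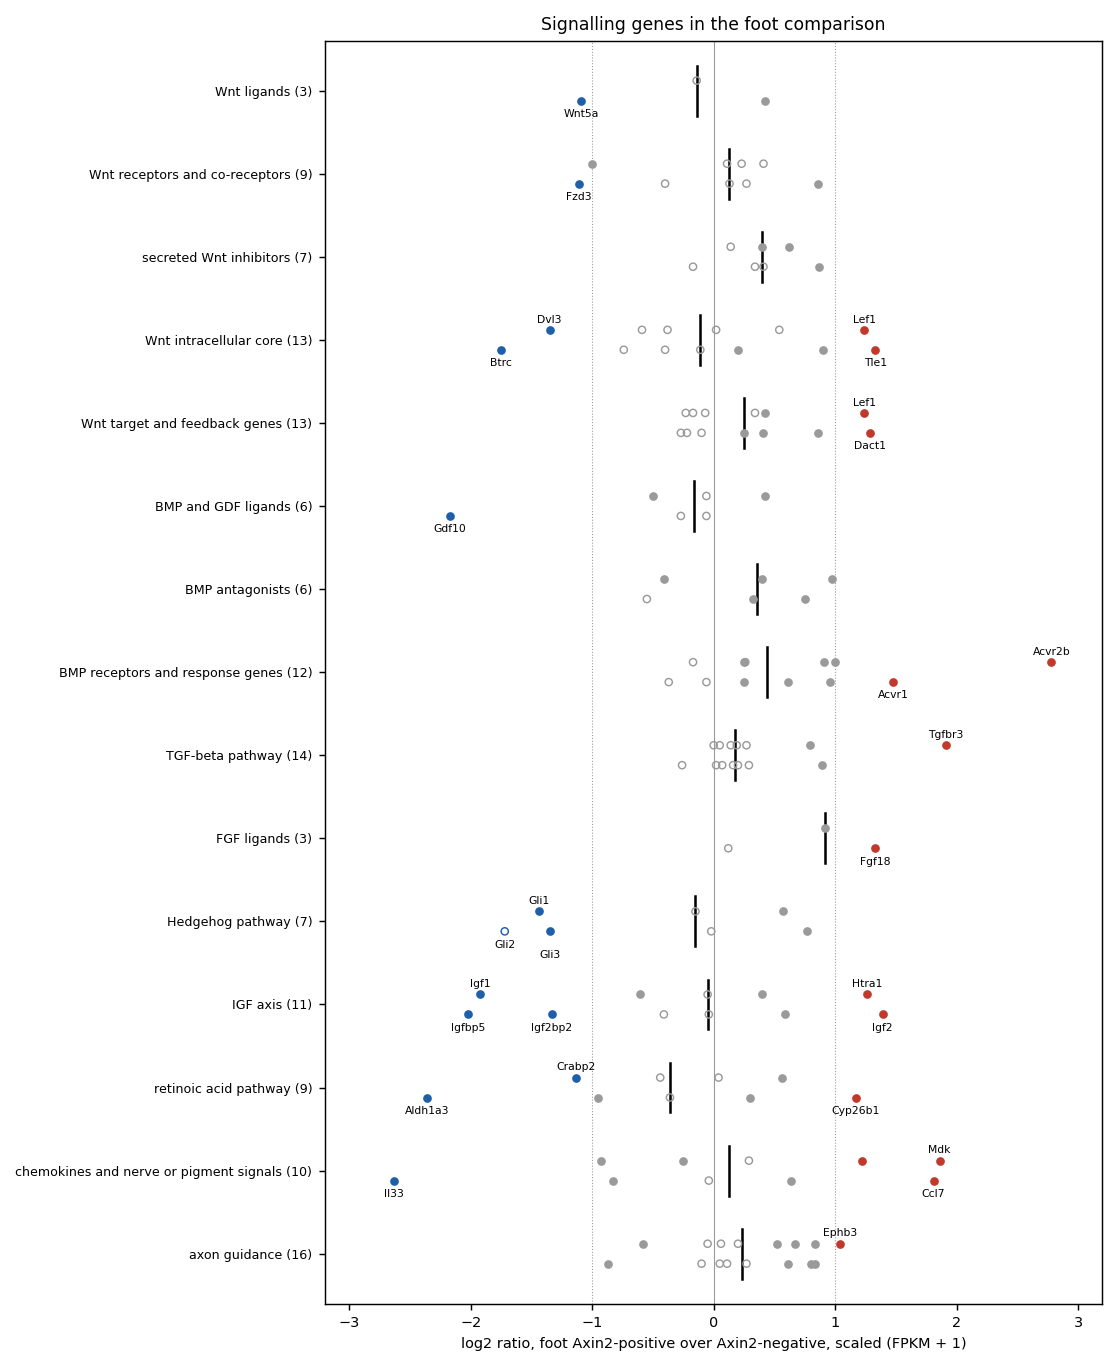
Scaled log2 ratio, labelled positive over labelled negative, of each compared member of 15 signalling lists (number compared in brackets); red and blue are called higher and lower, filled points have bounds that do not overlap after scaling, black bars are list medians, dotted lines mark 2-fold, and called genes that the text describes carry names. Most members lie inside the dotted lines, and Acvr2b at 2.78 and Il33 at -2.63 lie farthest out.

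BMP ligands signal through paired receptor kinases to Smad proteins, and Id genes are common targets. Of 12 BMP receptor and response genes compared, 2 were called higher and none lower, 9 of 12 had a ratio above 0, and the median was 0.43 (0.21 as deposited). Acvr2b, a type II receptor for activins and BMPs, stood at 6.77 FPKM (bounds 3.22 to 10.3) in the positive-labelled library and 0.234 (0 to 0.639) in the negative-labelled library, a log2 ratio of 2.78 (1.5 to 3.61). The back values were 1.03 and 0.593 FPKM, so the positive-labelled library was the one that stood apart. Acvr1, a type I receptor, was called higher at 9.14 FPKM (bounds 4.89 to 13.4) against 3.17 (2.25 to 4.20), a ratio of 1.48 (0.37 to 2.33). Id1 and Id3, which encode inhibitors of basic helix-loop-helix factors, were just under 2-fold higher. Id1 stood at 177 FPKM (bounds 162 to 192) against 104 (96.1 to 112), and Id3 at 137 FPKM (bounds 125 to 151) against 82.3 (75 to 89.7). Id2 and Id4 had ratios of 0.25 and -0.06. The signal transducer gene Smad5 had a ratio of 0.91 (0.59 to 1.23) and Smad1 of 0.26 (-0.09 to 0.60). Bmpr2, a type II receptor gene below the filter, stood at 0.683 and 3.04 FPKM. The 6 ligands compared had a median of -0.17, with Gdf10 called lower (-2.17).

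Tgfbr3, the betaglycan co-receptor of TGF-beta, was the only 1 of 14 TGF-beta pathway genes called. Its level was 9.87 FPKM (bounds 7.10 to 12.8) in the positive-labelled library and 2.30 (1.82 to 3.03) in the negative-labelled library, a log2 ratio of 1.91 (1.2 to 2.47). Its back values were 10.8 and 6.05 FPKM, so the negative-labelled foot library was the lowest of the 4. The signalling receptors Tgfbr1 and Tgfbr2 stayed near 0, at 0.19 and 0.05, and the list's median was 0.18 (-0.04 as deposited). Skil, a feedback repressor of Smad activity, had a ratio of 0.89 (0.42 to 1.34).

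Hedgehog signals act through the Gli transcription factors, and all 3 Gli genes were called lower in the positive-labelled library. Gli1, itself a target of the pathway, stood at 1.24 FPKM (bounds 0.503 to 2.31) against 5.82 (3.86 to 7.78), a log2 ratio of -1.44 (-2.40 to -0.38). Gli3, which serves mainly as the repressor in the absence of ligand, stood at 4.40 FPKM (bounds 2.92 to 6.72) against 14.9 (11.2 to 16.6), a ratio of -1.35 (-1.96 to -0.45). Gli2, the main activator, stood at 1.42 FPKM (bounds 0.995 to 5.47) against 8.01 (3.53 to 10.6) with overlapping bounds. In the back the Gli1 values were 6.58 and 7.90 FPKM, the Gli3 values 4.92 and 7.73, and the Gli2 values 3.59 and 2.69. As deposited, the positive-labelled foot library was thus the lowest of the 4 for all 3 genes. Its bounds for Gli3 and Gli2, but not for Gli1, took in at least 1 back value. The surface proteins that help cells bind Hedgehog did not follow, since Gas1 and Cdon had ratios of 0.57 and 0.77. Over 7 compared genes the median was -0.15, and the receptor gene Ptch1, another target, was below the filter at 2.55 and 2.30 FPKM.

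Hes1, a repressor that is a target of Notch and of other pathways, differed more. Its level was 53.7 FPKM (bounds 46.7 to 61.1) in the positive-labelled library and 349 (185 to 218, excluding the value) in the negative-labelled library, a log2 ratio of -2.44, against 34.3 and 64.7 FPKM in the back. The negative-labelled library was therefore the one that stood apart. Other Notch genes compared were not lower with it: Rbpj, the nuclear partner of Notch, had a ratio of 0.61 (0.30 to 0.91) and Notch2 of 0.32 (0.07 to 0.56). Heyl was called higher at 7.23 FPKM against 1.5 (1.06 to 2.28), with overlapping bounds.

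The IGF axis held calls in both directions. Of 11 genes compared, 2 were called higher and 3 lower, with a median of -0.05. The growth factor gene Igf1 was called lower at 1.73 FPKM (bounds 1.03 to 4.37) in the positive-labelled library and 10.8 (9.83 to 11.8) in the negative-labelled library, a log2 ratio of -1.92 (-2.48 to -0.81), whereas its relative Igf2 was called higher (1.39). Igfbp5, a secreted IGF-binding protein gene, stood at 3.55 FPKM (bounds 2.80 to 4.30) against 20.3 (18.9 to 21.7), a ratio of -2.02 (-2.38 to -1.70). With 34.5 and 30.2 FPKM in the back, its value in the positive-labelled foot library was the lowest of the 4. Igf2bp2, an RNA-binding protein that binds Igf2 messages, was called lower (3.04 against 10.7 FPKM). Htra1, a secreted protease able to cut IGF-binding proteins and matrix, was called higher at 183 FPKM (bounds 164 to 201) against 88.8 (83.2 to 94.9), a ratio of 1.26 (1.01 to 1.5). The remaining binding protein genes Igfbp2, Igfbp3, Igfbp4, Igfbp6 and Igfbp7 had ratios between -0.61 and 0.59 and were not called.

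Other secreted factors and their enzymes held calls in both directions. Vegfa, the angiogenic growth factor gene, was called lower at 1.58 FPKM (bounds 1.0 to 4.89) against 8.76 (7.09 to 10.5), a log2 ratio of -1.74 (-2.36 to -0.26), and was the only 1 of 7 PDGF and VEGF pathway genes called. In the retinoic acid pathway the synthesizing enzyme gene Aldh1a3 was called lower, at 0.294 FPKM (bounds 0 to 1.79) against 6.24 (4.79 to 7.76). The degrading enzyme gene Cyp26b1 was called higher, at 10.8 FPKM (bounds 9.02 to 12.6) against 5.06 (4.38 to 5.74). The carrier gene Crabp2 was called lower as well, so that 1 of 9 genes was higher and 2 were lower, around a median of -0.36. Of 3 FGF ligands compared, Fgf18 was called higher, and the feedback inhibitor genes Spry1 and Spry2 had ratios of -0.56 (-0.94 to -0.20) and -0.73 (-1.18 to -0.21).

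Among 10 chemokine, nerve and pigment signals, 3 were called higher and 1 lower. Mdk, the heparin-binding growth factor midkine, stood at 2028 FPKM (bounds 709 to 827, excluding the value) in the positive-labelled library and 658 (635 to 689) in the negative-labelled library, a log2 ratio of 1.86. By the Mdk bounds the libraries lay much closer together than by the Mdk values, so the size of this ratio is uncertain. Its relative pleiotrophin, Ptn, was not higher in the positive-labelled library, at 295 FPKM (bounds 284 to 309) and 412 (406 to 427). The neurotrophin gene Ntf3 had 26.2 and 25 FPKM. Ccl7, a monocyte chemokine gene, was called higher at 6.18 FPKM (bounds 2.82 to 8.96) against 1.31 (0.432 to 2.16). Il33, an alarmin cytokine, was called lower at 2.28 FPKM (bounds 1.05 to 4.58) against 22.3 (18.5 to 26.2), a ratio of -2.63 (-3.55 to -1.60), and at 0.173 and 0.183 FPKM in the back it was near 0. Kitl, the ligand that mast cells and melanocytes depend on, had a ratio of -0.83 (-1.2 to -0.44) and was not called. Of 16 axon guidance genes 1, the ephrin receptor gene Ephb3, was called higher (8.49 against 4.29 FPKM), and 12 of 16 had a ratio above 0 (median 0.23, 0.03 as deposited).

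Of 25 limb and mesenchyme transcription factors compared, 3 were called higher and none lower, with a median of 0.21 (-0.01 as deposited). Klf9, a Krüppel-like factor known as a glucocorticoid target, stood at 5.56 FPKM (bounds 4.27 to 6.85) against 0.708 (0.451 to 0.982), a log2 ratio of 2.09 (1.56 to 2.57). Nfix, a nuclear factor I gene, stood at 162 FPKM (bounds 41.0 to 72.7, excluding the value) against 58.4 (53.5 to 63.6), and Meis2, a homeobox cofactor gene, at 5.22 FPKM (bounds 3.47 to 10.9) against 1.38 (1.25 to 5.08), both with bounds that overlapped. Nfia and Nfib, the other nuclear factor I genes compared, had ratios of -0.63 (-0.88 to -0.26) and -0.69 (-0.96 to -0.40). The mesenchymal regulators Twist1, Twist2 and Prrx1 differed by less than 2-fold, at 0.25, 0.42 and 0.24. Tbx3 and Osr1, limb and mesenchyme factors, had -0.82 (-1.68 to -0.11) and -0.74 (-1.14 to -0.25) and did not pass. Rgs2, which limits G protein signalling and is listed among upper dermal genes, was called higher at 26.8 FPKM (bounds 20.4 to 33.3) against 5.29 (4.18 to 6.56), a ratio of 2.36 (1.72 to 2.93), and had 11.0 and 22.8 FPKM in the back.

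The marker lists of the dermal layers were called in part. Of 8 upper dermal genes compared 2, Lef1 and Rgs2, were called higher and none lower, with a median of -0.10. Of 9 lower dermal and fascia genes 3 were called lower and none higher, with a median of -0.83. Beside Mfap5 these were Dlk1, the preadipocyte factor gene, at 166 FPKM (bounds 154 to 178) in the positive-labelled library and 614 (461 to 499, excluding the value) in the negative-labelled library, and the annexin gene Anxa3 at 1.91 FPKM (bounds 0.899 to 2.82) against 7.15 (5.31 to 8.35). Dpt and Col14a1, matrix genes of the same list, had ratios of 0.45 (0.25 to 0.66) and 0.73 (0.54 to 0.90). The hair condensate and papilla list had no call among 9 compared genes, including Crabp1 at 225 and 215 FPKM, and a median of 0.14 (-0.08 as deposited).

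The matrix lists held genes that are abundant in dermal fibroblasts. Of 23 fibrillar collagen genes and collagen-modifying enzymes, 1 was called higher and 3 lower, with a median of -0.25. Col1a2 was the one higher, at 2338 FPKM (bounds 2325 to 2413) against 716 (712 to 740), and Col1a1, its partner chain, was lower, at 262 FPKM (bounds 256 to 278) against 713 (714 to 737, excluding the value). Col5a1, which sets fibril diameter, was called lower at 35.8 FPKM (bounds 33.3 to 38.2) against 87.5 (83.8 to 91.9). Fkbp10, a collagen chaperone of the endoplasmic reticulum, was called lower at 28.8 FPKM (bounds 24.6 to 33.0) against 69.2 (64.7 to 73.6). The cross-linking and hydroxylating enzyme genes Loxl1, Plod1 and Plod2 and the chaperone gene Serpinh1 had ratios from -0.98 to -0.81, all under the limit with bounds that did not overlap. Lox, the main lysyl oxidase gene, was 123 and 123 FPKM. Enzymes and chaperones of collagen thus mostly lay below the all-gene median, while Col3a1 and Col5a2 had ratios of 0.21 and 0.45.

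Other collagens had a median of 0.41 over 14 genes, and the 2 calls were far apart. Col12a1 (chr9:79446798-79566638, mm9), which encodes a collagen that binds to the surface of fibrils, stood at 71.2 FPKM (bounds 61.2 to 77.6) in the positive-labelled library and 10.5 (9.69 to 11.9) in the negative-labelled library, a log2 ratio of 2.87 (2.49 to 3.10). The back libraries had 45.7 and 10.9 FPKM in the same order, so Col12a1 was higher in the positive-labelled library of both skins. Col15a1, a collagen near basement membranes, was called lower at 0.543 FPKM (bounds 0.207 to 3.67) against 9.0 (6.92 to 11.1), a ratio of -2.55 (-3.2 to -0.57). The basement membrane chains Col4a1 and Col4a2, which assemble with each other and are transcribed from a shared promoter region, had ratios of 0.66 (0.35 to 0.96) and -0.86 (-1.39 to -0.38). Fn1, which encodes fibronectin, was called higher (3.24) and had 260 and 103 FPKM in the back, so the negative-labelled foot library was the lowest of the 4.

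Elastic fibre and microfibril genes gave 5 called lower and 1 higher of 20 compared, around a median of -0.12. Adamtsl2, a microfibril-associated protein gene, stood at 0.241 FPKM (bounds 0 to 2.23) in the positive-labelled library and 5.64 (2.96 to 8.35) in the negative-labelled library, a log2 ratio of -2.30 (-3.12 to -0.13). Efemp1, a fibulin gene, stood at 3.42 FPKM (bounds 1.69 to 5.16) against 18.4 (15.6 to 21.3), a ratio of -1.93 (-2.87 to -1.22). In the back Efemp1 was 135 and 43.9 FPKM, the reverse order. The others called lower were Fbn1, Mfap5 and Eln. Fbn2, the fibrillin gene most used before birth, had a ratio of 0.60 (0.47 to 0.74) and was not called, and the fibulin gene Fbln5 had 52.6 and 61.3 FPKM. Adamtsl4 was called higher at 9.17 FPKM (bounds 0.168 to 19.3) against 0.545 (0.189 to 1.60), with bounds that overlapped.

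**Figure D3:**
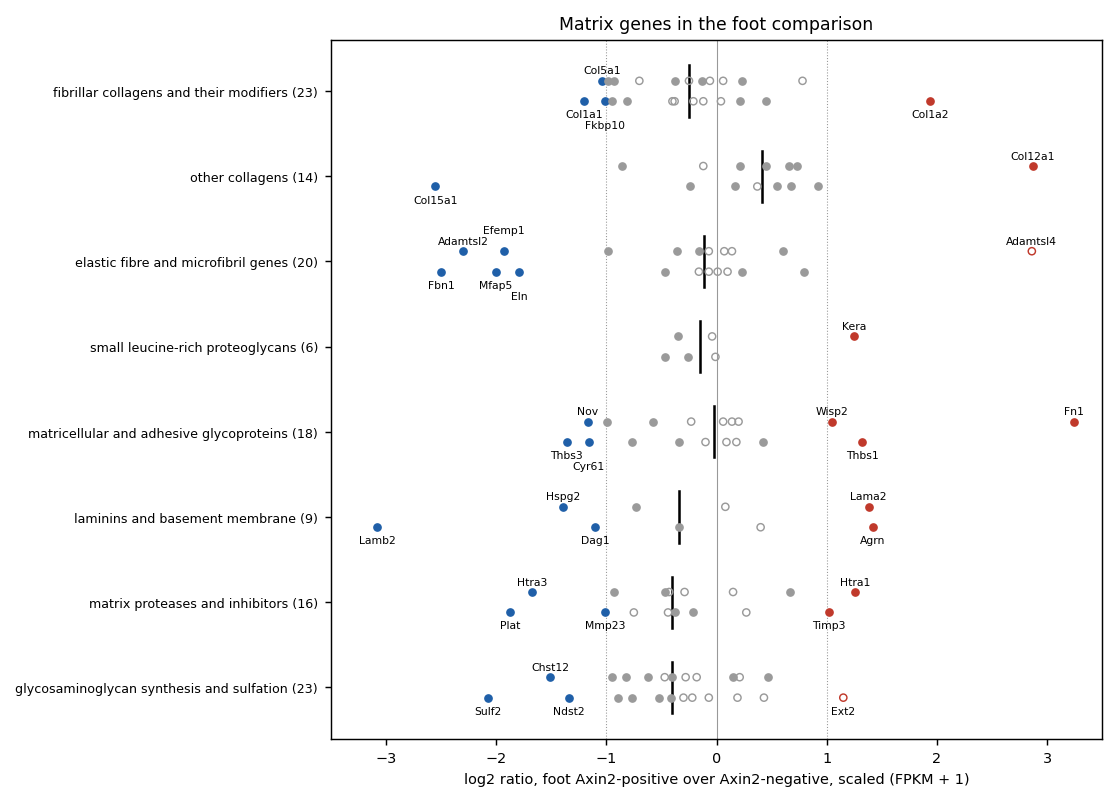
Scaled log2 ratio, labelled positive over labelled negative, of each compared member of 8 matrix lists (number compared in brackets), with colours, filled points, bars and dotted lines as in the plot of signalling genes. Fn1 at 3.24 and Col12a1 at 2.87 lie farthest right among filled points and Lamb2 at -3.08 farthest left, while list medians lie between -0.41 and 0.41.

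Adhesive glycoproteins and basement membrane genes split evenly. Of 18 matricellular and adhesive genes 3 were called higher and 3 lower (median -0.02). Thbs1, a thrombospondin able to activate latent TGF-beta, was called higher at 9.55 FPKM (bounds 7.99 to 11.3) against 3.85 (3.18 to 4.56), a log2 ratio of 1.32 (0.89 to 1.75), and Thbs3 was called lower at 10.1 FPKM (bounds 2.79 to 17.8) against 32.2 (24.7 to 39.6). Among CCN family genes, Wisp2 was called higher (8.52 against 4.29 FPKM), Nov and Cyr61 lower (8.23 against 23.2 and 7.31 against 20.6), and Ctgf and Wisp1 had ratios of 0.20 and 0.09. The abundant matricellular genes Sparc and Postn were not called, at -0.77 and 0.42. Of 9 basement membrane genes 2 were higher and 3 lower. Lama2, the laminin chain of muscle and nerve basement membranes, stood at 12.8 FPKM (bounds 8.98 to 16.7) against 5.15 (4.51 to 5.78), a ratio of 1.38 (0.76 to 1.89). Agrn, a heparan sulfate proteoglycan gene, stood at 10.5 FPKM (bounds 8.19 to 12.7) against 3.93 (3.21 to 4.67), and Hspg2, the gene of the proteoglycan perlecan, at 1.71 FPKM (bounds 1.21 to 2.51) against 7.04 (6.18 to 7.90). Dag1, which encodes the laminin receptor dystroglycan, was called lower at 3.0 FPKM (bounds 2.20 to 3.80) against 8.78 (7.92 to 9.66), and Lamb2 was lower with a ratio of -3.08 (-3.80 to -2.21).

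Among 16 matrix protease and inhibitor genes, 2 were called higher and 3 lower, with a median of -0.41. Plat, the tissue plasminogen activator gene, stood at 2.11 FPKM (bounds 1.3 to 2.92) in the positive-labelled library and 12 (10.4 to 13.6) in the negative-labelled library, a log2 ratio of -1.87 (-2.49 to -1.34). Htra3, a relative of Htra1, was called lower at 2.03 FPKM (bounds 0.679 to 3.76) against 9.97 (8.29 to 11.7), the opposite direction to Htra1. Mmp23 was called lower (6.0 against 15.3 FPKM), and the gelatinase gene Mmp2 had a ratio of -0.93, under the limit. Timp3, a matrix-bound protease inhibitor, was called higher at 14.2 FPKM (bounds 11.9 to 16.6) against 7.70 (6.83 to 8.58), while Timp1 and Timp2 had ratios of -0.29 and -0.21.

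Genes that build and sulfate glycosaminoglycans, the sugar chains that bind growth factors, had a median of -0.40 over 23 compared, with 1 called higher and 3 lower. Sulf2, an enzyme that removes sulfate groups from heparan sulfate outside the cell and thereby releases Wnt and FGF proteins, stood at 10 FPKM (bounds 7.79 to 14.9) against 53.1 (49.5 to 57.3), a log2 ratio of -2.07 (-2.51 to -1.44). The back libraries had 27.9 and 20 FPKM, so both foot values lay outside the range of the back values, on opposite sides. Chst12, a chondroitin sulfotransferase gene, was called lower at 4.43 FPKM (bounds 2.80 to 6.12) against 16.8 (14.4 to 19.2), and Ndst2, a heparan sulfotransferase gene, at 2.09 FPKM (bounds 1.39 to 2.79) against 7.90 (6.27 to 9.39). Ext2, a polymerase subunit of heparan sulfate, was called higher with overlapping bounds (12.1 against 5.84 FPKM). Of 11 integrin and cadherin genes, the protocadherin-like gene Fat1 was called lower at 4.05 FPKM (bounds 3.36 to 5.12) against 13.7 (11.1 to 257), and no other was called.

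Of 4 tendon markers compared, 2 were called higher and 1 lower. Thbs4, a thrombospondin of tendon, stood at 572 FPKM (bounds 153 to 209, excluding the value) in the positive-labelled library and 38.1 (34.9 to 41.4) in the negative-labelled library, a log2 ratio of 4.11, and at 0.795 and 0.679 FPKM in the back. Kera, a corneal and tendon proteoglycan gene, was called higher at 10.8 FPKM (bounds 8.57 to 13.0) against 4.71 (3.77 to 5.65). Egr1, an early response gene that is also a tendon regulator, was called lower with a log2 ratio of -1.02 (-1.42 to -0.66). Tnmd, the gene of the tendon membrane protein tenomodulin, was below the filter and lower in the positive-labelled library, at 0.178 and 1.81 FPKM. The tendon regulator Scx and the collagen-binding gene Fmod were below the filter too, at 2.64 and 1.02 and at 1.97 and 4.63 FPKM. The list of 8 genes with an entry summed to 603 and 77.6 FPKM, of which Thbs4 gave nearly all in the positive-labelled library and a smaller part in the negative-labelled one. Abcc9, a channel subunit gene of pericytes, was called higher at 5.29 FPKM (bounds 4.04 to 6.54) against 1.08 (0.742 to 1.42), while the pericyte gene Rgs5 had a ratio of 0.77 (0.33 to 1.2) and Pdgfrb of -0.40 (-0.84 to -0.02). The 14 pericyte and smooth muscle genes summed to 41.8 and 39.2 FPKM.

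Cells copy DNA in S phase and divide in mitosis, and the genes needed for each are transcribed in waves. Of 27 S phase genes compared, 4 were called higher in the positive-labelled library and none lower, and 18 of 27 had a ratio above 0, with a median of 0.34. Gins1, a subunit of the replicative helicase complex, stood at 26.2 FPKM (bounds 14.6 to 37.8) against 7.5 (5.29 to 10), a log2 ratio of 1.89 (0.71 to 2.84), and the back libraries had 7.11 and 7.10 FPKM. Gmnn, which encodes the licensing inhibitor geminin, stood at 34.0 FPKM (bounds 26.7 to 41.4) against 13.0 (10 to 16), a ratio of 1.55 (0.93 to 2.16). Chaf1b, a histone chaperone subunit that acts at replication forks, was called higher too, at 12.6 against 6.4 FPKM. The Mcm helicase genes were not called and lay between -0.76 for Mcm5 and 0.40 for Mcm2. Pcna, the sliding clamp, had a ratio of 0.34. As deposited, the list median was 0.11.

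The 28 G2 and mitosis genes had a median of 0.43, with 19 of 28 above 0, yet 2 were called higher and 4 lower. The kinesin gene Kif20a (1.98) and Racgap1, a regulator of cytokinesis at 21.0 FPKM (bounds 15.4 to 28.5) against 8.93 (7.39 to 12.2), were higher. Nek2, a centrosome kinase gene, stood at 0.136 FPKM (bounds 0 to 2.07) in the positive-labelled library and 8.20 (4.89 to 11.5) in the negative-labelled library, a log2 ratio of -2.90 (-3.54 to -0.76). Smc4, a condensin subunit, was called lower at 4.63 FPKM (bounds 3.16 to 7.85) against 33.3 (23.7 to 33.9), a ratio of -2.40 (-2.86 to -1.26), where the back libraries had 28.0 and 23.7 FPKM. Cdc25c, the phosphatase that starts mitosis, was called lower at 4.18 FPKM (bounds 2.60 to 5.78) against 19.5 (13.9 to 25.1). Ckap2, a spindle protein gene, was called lower at 5.22 FPKM (bounds 3.78 to 6.62) against 14.6 (12.5 to 16.8). Cdk1, the mitotic kinase, had a ratio of 0.47 (0.19 to 0.74), and the cyclin genes Ccnb1 and Ccnb2 had 0.74 and 0.00. Most of the list thus lay above 0 while its lowest members lay farther from 0 than its highest.

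Promoters are shown for the mitotic genes because members of this list are known to share the CCAAT box, a binding motif of the factor NF-Y. In RefSeq promoter sequences (GRCm38.p6), searched over the 250 bases before each start on both strands, CCAAT or its complement ATTGG was in 21 of 25 promoters (84%) of the 22 compared mitotic genes with a promoter in the table, in 60% of S phase promoters, in 35.8% of promoters of all compared genes and in 33.8% of all promoters. It was in 33.9% of promoters of genes called higher and 34.6% of those called lower. Capitals mark the motif, and each run gives the nearby bases on the gene's own strand. The 3 printed were chosen from called genes after their values were seen. Kif20a and Cdc25c, also called, were left out of this choice by their place in the genome, whatever their motif. The 3 therefore do not show which called mitotic genes hold the box.
Nek2: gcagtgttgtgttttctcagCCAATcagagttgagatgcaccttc
Racgap1: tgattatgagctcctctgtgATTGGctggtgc
Ckap2: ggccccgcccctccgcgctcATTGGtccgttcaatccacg
These lie at chr1:191821427-191821471 (plus strand), chr15:99651657-99651688 (minus strand) and chr8:22185820-22185859 (minus strand). Nek2 and Ckap2 were called lower and Racgap1 higher, so genes with the motif were called in both directions. The cell cycle element TTTGAA (or TTCAAA) was in 40% of the mitotic promoters, 10.8% of promoters of all compared genes and 16% of all promoters. A Lef/Tcf motif, CTTTGAT or ATCAAAG, was in 1.64% of promoters of genes called higher, 2% of those called lower, 2.08% of all compared genes and 3.21% of all promoters. Of the 7952 genes, 4434 had a promoter in the table. A match is a description of the letters and no evidence of binding.

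Growth arrest genes and imprinted genes overlapped in 1 large difference. Cdkn1c, an imprinted inhibitor of cyclin-dependent kinases, stood at 320 FPKM (bounds 304 to 337) in the positive-labelled library and 966 (954 to 1002) in the negative-labelled library, a log2 ratio of -1.36 (-1.48 to -1.26). In the back it had 103 and 225 FPKM, lower in the positive-labelled library there too. Another inhibitor gene, Cdkn2c, was called higher at 21.1 FPKM (bounds 16.7 to 25.6) against 11.2 (9.15 to 13.3), while Cdkn1a and Cdkn1b had ratios of 0.62 (-0.70 to 1.58) and 0.26 (-0.31 to 0.77). Of 17 imprinted genes 2 were called higher and 2 lower, with a median of -0.41. Peg3, a zinc finger gene expressed from the paternal copy, was higher at 26.9 FPKM (bounds 25 to 29.0) against 11.8 (10.7 to 12.9), as was Igf2, and Dlk1 and Cdkn1c were lower. The abundant imprinted gene Gnas, a G protein subunit, had a ratio of -0.55 (-0.67 to -0.47).

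Immediate early genes are transcribed rapidly after growth factor or stress signals. None of 15 compared was called higher and 6 were called lower in the positive-labelled library, with a median of -0.55. Gadd45g, a stress-response gene, stood at 3.55 FPKM (bounds 1.42 to 5.66) against 23.6 (20.2 to 26.9), a log2 ratio of -2.23 (-3.35 to -1.46). Fos stood at 8.59 FPKM (bounds 5.89 to 11.3) against 40.5 (37.3 to 43.9). Zfp36, which encodes an RNA-destabilizing protein, stood at 1.68 FPKM (bounds 0.801 to 2.52) against 9.11 (7.05 to 10.4), a ratio of -1.74 (-2.50 to -1.01). Gadd45a, Cyr61 and Egr1 were the other genes called lower, while Ier2, Nr4a1 and Btg2 had ratios of -0.05, -0.11 and 0.07. In the back, Fos (32.0 and 99.3 FPKM), Gadd45g (60.7 and 88.0) and Zfp36 (10.5 and 19.2) also had the lower value in the positive-labelled library.

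The Zfp36 promoter is shown since it holds a CArG box, the serum response element core, which was in 1 of 13 promoters of this list (7.69%), in 0.963% of promoters of all compared genes and in 1.47% of all promoters. Capitals mark the box at chr7:28379257-28379306 (minus strand).
Zfp36: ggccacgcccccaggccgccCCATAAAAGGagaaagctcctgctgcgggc

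**Figure D4:**
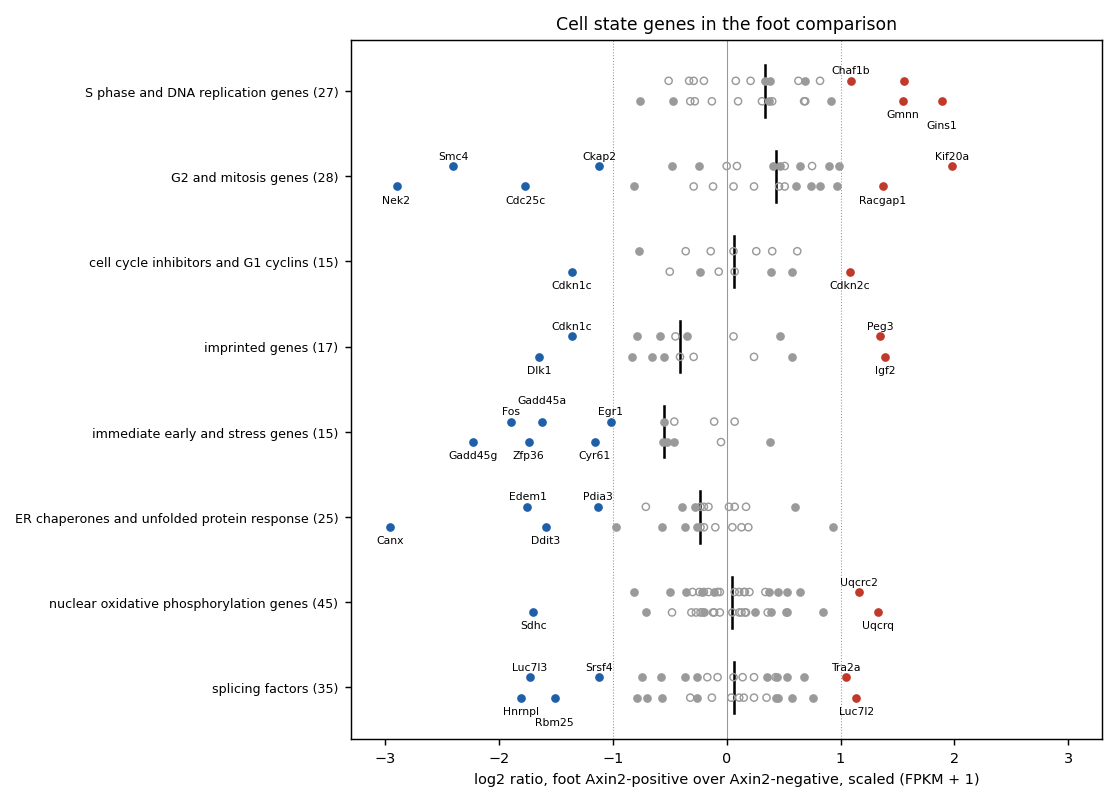
Scaled log2 ratio, labelled positive over labelled negative, of each compared member of 8 cell state lists (number compared in brackets), with colours, filled points, bars and dotted lines as in the plot of signalling genes. S phase genes called lie to the right only and immediate early genes called to the left only, while mitotic genes are called on both sides, from Nek2 at -2.90 to Kif20a at 1.98.

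Genes of the endoplasmic reticulum, where secreted matrix is folded, were called only downward, 4 of 25 compared, with a median of -0.23. Edem1, which sends misfolded glycoproteins to degradation, stood at 1.31 FPKM (bounds 0.875 to 1.71) against 7.73 (6.32 to 9.14), a log2 ratio of -1.75 (-2.27 to -1.25). Ddit3, the stress factor CHOP, stood at 4.44 FPKM (bounds 2.33 to 6.54) against 17.9 (12.3 to 19.8), a ratio of -1.59 (-2.45 to -0.60). Pdia3, a disulfide isomerase gene, and the lectin chaperone gene Canx were called lower as well. The general chaperone genes Hspa5 and Calr had ratios of -0.57 (-0.72 to -0.42) and -0.26 (-0.44 to -0.03), and the stress regulators Xbp1 and Atf4 had 0.05 and 0.13.

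Energy genes held calls in both directions. Of 45 nuclear genes of oxidative phosphorylation 2 were called higher and 1 lower, with a median of 0.05 (-0.18 as deposited). Uqcrq and Uqcrc2, subunits of respiratory complex III, were higher, at 212 FPKM (bounds 181 to 243) against 98.2 (83.6 to 113) and at 161 FPKM (bounds 101 to 136, excluding the value) against 84.6 (79.1 to 90.5), and Sdhc, a complex II subunit, was lower at 52.8 FPKM (bounds 42.6 to 63.0) against 204 (179 to 229). Of 12 glycolysis genes 1 was higher and 2 lower. Hk2, a hexokinase gene, stood at 5.78 FPKM (bounds 2.10 to 9.63) against 0.666 (0 to 1.66), a log2 ratio of 2.17 (0.37 to 3.52), and the glucose carrier gene Slc2a1 was called lower at 2.20 FPKM (bounds 0.915 to 4.30) against 6.65 (5.28 to 8.01). The lipid synthesis genes Fasn and Fdps were called lower (-1.18 and -1.10), 2 of 9 compared. Of 10 hypoxia response genes, Ndrg1 was called higher with overlapping bounds and Vegfa lower.

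Nuclear genes were mixed. Of 35 splicing factors 2 were called higher, Luc7l2 and Tra2a, and 4 lower, Hnrnpl, Luc7l3, Rbm25 and Srsf4, around a median of 0.06 (-0.17 as deposited). Hnrnpl, an RNA-binding protein gene, stood at 30.5 FPKM (bounds 25.1 to 37.4) in the positive-labelled library and 128 (117 to 140) in the negative-labelled library, and at 153 and 44.2 FPKM in the back. Of 25 histone and chromatin genes, Chd2 was called higher and Cbx1, a heterochromatin protein gene, lower, at 19 FPKM (bounds 14.9 to 23.3) against 57.0 (45.2 to 57.5). The histone methyltransferase gene Ezh2 and the maintenance DNA methyltransferase gene Dnmt1 had ratios of 0.79 (0.33 to 1.36) and 0.82 (0.45 to 1.18). Of 29 cytoskeletal genes the non-muscle myosin gene Myh9 was called higher (6.33 against 1.5 FPKM), and none was called lower. The 6 interferon and antigen presentation genes compared had no call, with B2m at 231 and 329 FPKM.

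The 12 highest and 12 lowest ratios were taken from protein-coding genes with at least 10 FPKM in the larger library, both values inside their bounds and bounds that did not overlap. Mysm1, a histone deubiquitinase gene, stood at 11994 FPKM (bounds 6641 to 17155) in the positive-labelled library and 6.44 (4.95 to 8.04) in the negative-labelled library, against 2.15 and 0.835 FPKM in the back. Srrm2, a splicing cofactor gene, stood at 2173 FPKM (bounds 1834 to 2513) against 10.9 (10.3 to 11.6), with 12.1 in the negative-labelled back library. Atp2c1, a Golgi calcium pump gene, stood at 281 FPKM (bounds 140 to 422) against 3.37 (3.25 to 6.81), with 3.51 and 2.89 in the back. For Mysm1 and Atp2c1 the positive-labelled foot library lay far above the other 3, and its bounds were wide. The next were Gtf2a1, Gcfc1, Stxbp5, Spag5, Chd2, Ppig, Ccdc28a, Atp11a and Pan3, with ratios from 4.14 down to 3.32. Spag5, a spindle protein gene, was also higher in the positive-labelled back library (20.7 against 1.90 FPKM).

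At the low end, by the same rule, the mast cell protease gene Tpsb2 came first, at 0.701 FPKM (bounds 0 to 2.22) in the positive-labelled library and 66.2 (60.3 to 72.0) in the negative-labelled library; it has a near-identical neighbour, Tpsab1, so the split of reads between them is uncertain. Cma1, another mast cell protease gene, had a lower ratio (-6.07) at 1.18 FPKM (bounds 0.382 to 2.10) against 165 (119 to 139, excluding the value), and the rule left it out for the value outside its bounds. Gm15446, 2310079F23Rik, Gm14325 and Gm2004, listed under provisional names, followed with ratios of -4.59 for Gm15446, -3.49 for Gm14325 and -3.15 for Gm2004. Msh5, a meiotic mismatch repair gene, had 0.491 FPKM (bounds 0.197 to 5.33) against 15.3 (6.85 to 23.8). Snx24, a sorting nexin gene, stood at 0.367 FPKM (bounds 0 to 1.15) against 11.8 (9.69 to 13.8), and Pqlc1 at 0.247 FPKM (bounds 0 to 3.05) against 10.4 (8.41 to 12.8). S100b, Lamb2, Canx and Myl1, a muscle myosin light chain gene at 0.565 against 12.1 FPKM, completed the 12. A mast cell, a glial and a muscle marker thus stood among the 12 lowest ratios taken by this rule.

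**Figure D5:**
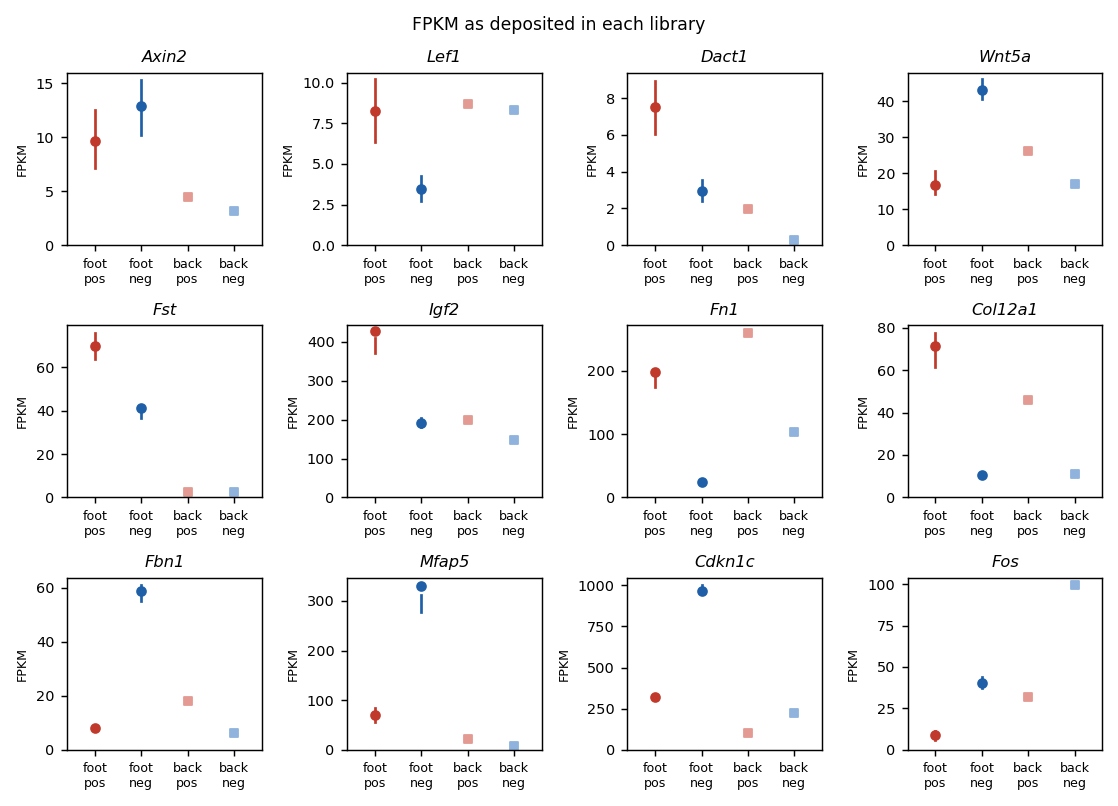
FPKM as deposited of 12 genes in each of the 4 libraries (1 panel a gene); circles with bars are foot values with the authors' bounds, squares are back values without bounds. Fn1 and Col12a1 are higher in the positive-labelled library of both skins, Lef1 is low in the negative-labelled foot library alone, and Mfap5 is highest in the negative-labelled foot library, above its own bounds.

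The called genes were examined for a foot library at least 2-fold apart from each of the other 3, after median-ratio scaling of all 4. Of the 791 genes called higher, 725 had a value above 0 in all 4 libraries: in 336 the positive-labelled foot library was above the other 3, in 158 the negative-labelled foot library was below the other 3, and 12 of these met both conditions. Of 730 such genes called lower, the positive-labelled library was below the other 3 in 292 and the negative-labelled library above the other 3 in 181, and 11 met both. In 243 and 268 genes neither held. The call already set the foot libraries apart from each other, so part of each condition was met in advance. The same counts were not made over all genes compared, so these have no background. The back libraries differ from the foot in site and stage.

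The called genes were described by transcript length, GC content, level and chromosome. Among 5516 protein-coding genes with a known transcript length, cut into 5 equal groups by length, the share called higher was 14.4% in the group with the longest transcripts and 7.16% in the next to shortest group, and the share called lower was 8.25% and 12.1%. In the group with the shortest transcripts 10.2% were called higher and 10.1% lower, so the shares did not change steadily with length. Median ratios by length ran from -0.07 to 0.14, and the correlation of the ratio with log2 length across genes was 0.08. The correlation with GC content was -0.05, also across genes, which are no replicates and share the same libraries. The shares varied more with level, but level is the mean of the same scaled values that form the ratio. The filter asked for 5 FPKM in the higher library only. Genes of a lower mean therefore entered only when their values differed, so part of this contrast follows from the filter. In the group with the lowest mean FPKM of 5, 16.7% were called higher and 18.4% lower, compared with 4.81% and 4.71% in the group with the highest. At the filter itself, 25.1% of 343 genes whose higher value was between 5 and 5.5 FPKM were past 2-fold, and 24.2% of 368 genes just outside it, between 4.5 and 5 FPKM. Autosomes and the X chromosome had median ratios between -0.14 and 0.09.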

How the data were processed

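RNA from sorted dermal cells was made into TruSeq mRNA libraries, per the labels. The authors deposited FPKM per gene or assembled locus, with lower and upper bounds and a status, and the submitters' processing notes name TopHat, Cufflinks and mm9. Their versions and the level of the bounds were not given in the sources used here. Entries numbered 43604 and 47223 in the 2 foot tables, of which 6907 and 10608 had no name and 383 and 331 a status other than OK. Rows were summed per symbol, and 22 symbols changed to dates were restored. Read counts were not used here, so depth is unknown. Median-ratio factors came from 6209 genes of at least 5 FPKM in both foot libraries, with a pseudocount of 1. A call is a 2-fold difference across all genes compared and carries no test. Named genes are Axin2, up to 6 called members of each list with bounds apart and its 2 highest, and the 12 highest and 12 lowest ratios; other members account for a list. Some members are not reported here by name. Members and lists were chosen with earlier results of these data known. Calculations used Python 3.11.15 and pandas 2.3.3, and the counting of calls was tested on simulated data. Protein-coding status and lengths came from a GRCm38 annotation by symbol.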

Additional observations from a re-analysis of the deposited data

Results flagged for a closer look

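Of 622 list members compared, 5 were at least 2-fold apart in opposite directions in the foot and the back (labelled positive over labelled negative, each scaled within its skin). These also had foot bounds apart, foot values inside their bounds and at least 5 FPKM in a back library. Members apart in the same direction, and the share over all genes, were not counted, so the 5 have no background. For Rgs2 the log2 ratio was 2.36 (foot) and -1.14 (back), and Myh9 had 1.72 and -1.90. Fbn1 had -2.50 and 1.25, Efemp1 had -1.93 and 1.44, and Hnrnpl had -1.81 and 1.62. Each skin gave 1 pair of libraries, so the difference between the skins was not tested, and site and stage change together.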

How the results depend on the processing

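Counts of called genes moved by over 1.5 times with the pseudocount and the filter. With a pseudocount of 5, 406 genes were higher and 346 lower, and with a filter of 20 FPKM 278 and 292 of 3749. The other 8 alternatives for the counts stayed within 1.5 times, from 579 to 1181 higher and 599 to 1099 lower. Of 212 named genes 130 were called; 79 of these stayed called with a pseudocount of 5 and 121 with FPKM as deposited, and none of the 130 changed sign in the 5 settings tried. The log2 ratio of Acvr2b was 4.56 with a pseudocount of 0.1 and 1.24 with 5, and that of Nek2 was -4.95 and -1.29. List medians were lower as deposited, and both values are given where a printed median changed sign. No paired analysis was possible because each group has 1 library, and no library could be left out for the same reason. The bounds cover counting and read assignment within a library only, and genes near 5 FPKM carry the least precise ratios.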

Other observations

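Some genes outside the comparison were listed at 0 in a single foot library, and no fold is given for them. Rbp4, the retinol carrier gene, was listed at 0 in the positive-labelled library and at 35.1 FPKM (30.9 to 39.2) in the negative-labelled library, against 3.0 and 1.35 FPKM in the back libraries labelled positive and negative. Ccl11, the eosinophil chemokine eotaxin, was listed at 0 and at 8.48 FPKM, Fgfbp1, a secreted FGF carrier, at 0 and 7.93, and the fascia marker gene Ly6a at 0 and 7.11. Ptbp1, a splicing regulator that most cells use, was listed at 9.58 FPKM in the positive-labelled library and at 0 in the negative-labelled library, with 7.89 and 13.0 in the back. Ddx17, an RNA helicase gene, was listed at 0 and 8.80 FPKM, with 9.78 and 11.5 in the back. Jund, an AP-1 subunit gene, was listed at 0 and 6.73, with 17.1 and 12.6 in the back.
Female and male transcripts were both found in each foot library. Xist, expressed from the inactive X chromosome, stood at 9.26 FPKM in the positive-labelled library and 6.36 in the negative-labelled library, and the Y-linked gene Ddx3y at 9.43 and 8.59. Uty, another Y-linked gene, had 9.73 and 10.2 FPKM.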
